A study of Arabidopsis thaliana with 57 samples.

Results

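ARE//AGe is a transgene cassette that joins an element called ARE to AGe, the enhancer of the Arabidopsis thaliana floral gene AGAMOUS (AG, AT4G18960). It was followed here in flowers of Col, the Columbia background. The samples were chosen by their labels: 6 of the 57 in the series carry ARE//AGe in Col with flowers scored Wt, 3 in batch A and 3 in batch B. In batch A they were set against 3 Col samples that carry the Ctr//AGe cassette, also with Wt flowers. In batch B they were set against 3 Col samples with Wt flowers and no cassette, which makes 12 samples in all. A further comparison in batch A used 3 Col samples with the AGP//AGe cassette and Wt flowers. The remaining samples of the series enter the shared estimate of spread and the closing ranking. They include the mutants suvh1-2, hdp1-1 and hdp2-1 with and without ARE//AGe, and flower phenotypes scored sMf or rMf. In batch A they also include samples labelled M317 and M318, with Wt flowers. Every group is young flower tissue, and each replicate is a pool of RNA from several lines that share a phenotype, so replicate spread is a spread between pools. Fewer expressing cells and less RNA per cell cannot be told apart in such pools. The labels do not spell out ARE, Ctr or AGP. The series title describes an element that defends a cis-regulatory sequence against RNA-directed DNA methylation (RdDM), and its design text names noncoding RNA expression as the measurement.

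AG is a MADS-box transcription factor gene that specifies stamens and carpels and ends the growth of the floral meristem. Its expression in the inner floral whorls depends on a large intron that acts as an enhancer, where LEAFY and WUSCHEL, activators of AG in the young flower, bind. Plants silence repeated or foreign copies of a regulatory sequence through RdDM, in which noncoding transcripts of the sequence are made into small RNAs that guide DNA methylation back to it. Which strand of an enhancer is transcribed, and how much, is therefore a basic measurement at a transgene that duplicates it.

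Reads were counted on each strand over 2 regions of chromosome 4. AGe covers chr4:10384147-10387145, 2999 bases at 28.6% GC, which is intron 2 exactly in 1 of the 4 annotated AG transcripts. In the other 3 transcripts an exon of 90 bases lies inside it, at chr4:10386982-10387071. AG lies on the plus strand, so sense reads are plus-strand reads. The other region, chr4:10380701-10382800, is named AG promoter or M2 in the deposited table, without saying which name belongs to which samples. It is intergenic, 2100 bases long, and separated from the annotated start of AG by 55 bases. Reads of a cassette copy and of the endogenous gene fall on the same coordinates and were counted together. No source used here gives the orientation of AGe inside the cassettes, so sense and antisense are named after the endogenous gene throughout.

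The ends of AGe are shown because they fix what the counts cover and which strand is which. In the left end, chr4:10384147-10384206, capitals mark the first 2 bases of the intron. In the right end, chr4:10387086-10387145, they mark its last 2. The antisense line is the same right end as an RNA copied from the other strand would read, written as DNA. Letters are from the RefSeq TAIR10.1 assembly.
AGe left end, sense: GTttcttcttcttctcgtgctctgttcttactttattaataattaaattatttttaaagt
AGe right end, sense: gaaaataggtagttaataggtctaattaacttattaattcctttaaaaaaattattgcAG
AGe right end, antisense: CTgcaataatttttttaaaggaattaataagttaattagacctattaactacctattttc

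A stretch of 168 bases, chr4:10386603-10386770, is shown in both readings because it holds 6 of the 9 motif matches found in AGe and so shows how they read on each of the strands counted. Capitals mark matches to CCANTG, the core recognised by LEAFY, to TTAATGG, a sequence bound by WUSCHEL, and to CCAATCA, a motif conserved in this intron. In the antisense line they mark the same bases in reverse complement.
AGe inner stretch, sense: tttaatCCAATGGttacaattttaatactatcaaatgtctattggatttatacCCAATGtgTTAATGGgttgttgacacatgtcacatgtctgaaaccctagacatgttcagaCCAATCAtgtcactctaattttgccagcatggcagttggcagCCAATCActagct
AGe inner stretch, antisense: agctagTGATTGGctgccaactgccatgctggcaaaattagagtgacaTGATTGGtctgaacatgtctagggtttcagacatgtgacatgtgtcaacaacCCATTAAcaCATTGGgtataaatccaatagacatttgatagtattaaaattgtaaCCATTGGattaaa
Both strands of AGe were searched. CCANTG matched 6 times, of which 1 pair overlaps on opposite strands at positions 2463 and 2464 of AGe, counted from 1 at its plus-strand start. TTAATGG matched once, at position 2518, next to the CCANTG at 2510. CCAATCA matched at positions 2570 and 2612. Of 39726 windows of the same length across the 5 chromosomes, 32.8% hold as many CCANTG matches, 40.6% hold a TTAATGG and 10.3% hold as many CCAATCA. The matches describe the letters only, and the counts cannot place a read within AGe.

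The 12 samples had 16259524 to 56584186 uniquely mapped reads, and multiply mapped reads made up 7.94% to 16.3% of their mapped reads. Levels are given as RPM, the reads of a region and strand for every 1000000 reads of the library that mapped uniquely. Sense reads over AGe were present in all 12 samples, between 4.80 and 15.1 RPM. The table measures no gene besides AG, and sense reads over AGe can also come from a cassette copy in samples that carry one. The flower label was therefore not checked against a marker.

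With ARE//AGe in batch A, reads antisense to AG over the enhancer were about as abundant as sense reads, whereas with Ctr//AGe they were a small fraction. Both groups carry a cassette with AGe, and the named difference is ARE in place of Ctr. Antisense reads were 12.4, 13.6 and 12.3 RPM in ARE//AGe replicates 1, 2 and 3, from counts of 493, 477 and 410. In Ctr//AGe replicates 1, 2 and 3 they were 1.58, 1.09 and 1.09 RPM, from counts of 53, 34 and 26. Every ARE//AGe sample lay above every Ctr//AGe sample, the nearest of them 10.7 RPM apart. The absolute rise was 11.5 ± 0.446 RPM (SE of the difference of means, n = 3 and 3). On the log2 scale it was 3.33 ± 0.30 (SE), a 10.1-fold difference (edgeR quasi-likelihood test, adjusted p = 1.48e-13). This was the 1 feature of 4 called in this comparison, at an adjusted p under 0.05 (25% called).

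The sense strand showed a smaller difference that the test did not call. In ARE//AGe replicates 1, 2 and 3 the sense level was 14.6, 15.1 and 13.8 RPM. In Ctr//AGe replicates 1, 2 and 3 it was 11.4, 13.4 and 12.4 RPM. The lowest ARE//AGe sample was 0.397 RPM above the highest Ctr//AGe sample, so the groups did not overlap, though only narrowly. The difference was 2.08 ± 0.691 RPM (SE, n = 3 and 3), or 0.22 on the log2 scale with a 95% interval of -0.16 to 0.60 (edgeR adjusted p = 0.344). With only these 2 groups in the fit it was called (adjusted p = 0.0239). The sum of both strands averaged 27.3 ± 1.31 RPM in the ARE//AGe samples against 13.7 ± 0.777 RPM in the Ctr//AGe samples (SD, n = 3 each), a difference of 13.6 ± 0.877 RPM.

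**Figure D1:**
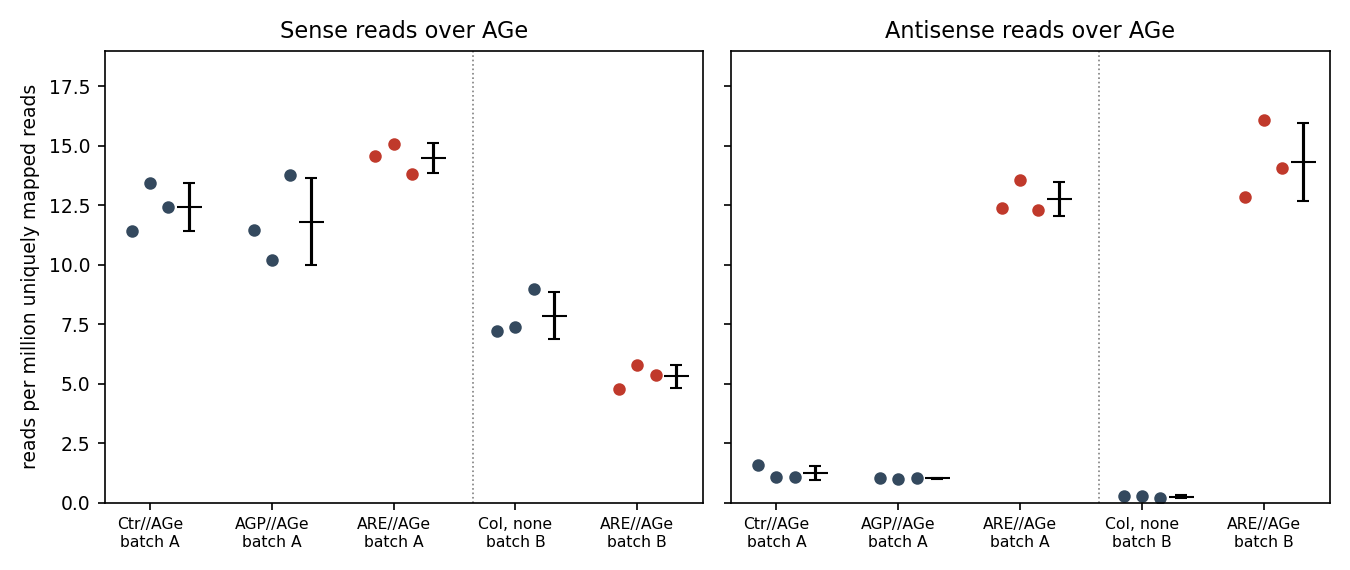
Sense reads (left) and antisense reads (right) over AGe, in RPM, by group. Points are samples, in the order of replicates 1 to 3, the black bar beside them is the mean ± SD (n = 3), and the dotted line separates the batches. In batch A antisense reads are 12.3 to 13.6 RPM with ARE//AGe (red) and at most 1.58 RPM in the others shown. In batch B they are 12.9 to 16.1 RPM with ARE//AGe and at most 0.3004 RPM in Col.

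The batch B controls are plants that have the endogenous enhancer alone, so this contrast holds the presence of any cassette as well as ARE, and these cannot be told apart. Antisense reads went from a small part of the enhancer reads to the larger part, and sense reads were lower. Antisense counts in Col without a cassette were 6, 17 and 6 in replicates 1, 2 and 3, or 0.265, 0.3004 and 0.193 RPM. With ARE//AGe they were 209, 554 and 373, or 12.9, 16.1 and 14.1 RPM. The groups were 12.6 RPM apart at their nearest samples. The absolute rise was 14.1 ± 0.945 RPM (SE, n = 3 and 3), and 5.77 ± 0.37 (SE) on the log2 scale, a 54.5-fold difference (edgeR adjusted p = 5.29e-19). The Col level under this fold rests on 29 reads, which limits how well the fold is known. Its 95% interval on the log2 scale runs from 5.03 to 6.51 and uses the spread shared over all groups. The SE of the absolute rise uses the compared samples alone, so it cannot be set beside that interval.

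Sense reads in batch B were 4.80, 5.78 and 5.35 RPM with ARE//AGe and 7.21, 7.40 and 8.996 RPM in Col. All samples with the cassette lay below all those without it, by at least 1.43 RPM. The means differed by -2.56 ± 0.633 RPM (SE, n = 3 and 3) and -0.56 ± 0.20 (SE) on the log2 scale (edgeR adjusted p = 0.0135). AGe sense and antisense were the 2 features of 4 called in this comparison (50%). The sense call was lost without ARE//AGe replicate 1, the shallowest sample (log2 -0.50, adjusted p = 0.0605), and without Col replicate 3 (log2 -0.46, adjusted p = 0.0853), which leaves 1 feature called in each case. The sum of both strands averaged 19.6 ± 2.12 RPM in the ARE//AGe samples against 8.12 ± 0.931 RPM in Col (SD, n = 3 each), a difference of 11.5 ± 1.34 RPM.

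Multiply mapped reads were 16.3%, 13.2% and 10.8% of mapped reads in the batch B ARE//AGe samples and 10.9%, 7.94% and 8.27% in Col. With all mapped reads in the denominator the antisense rise was 12.2 RPM and the sense difference -2.56 RPM. With total reads they were 11.3 and -2.49 RPM, and both edgeR calls were kept under either library size. In batch A the multiply mapped shares were 12.1% to 12.5% with ARE//AGe and 11.1% to 15.2% with Ctr//AGe.

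**Figure D2:**
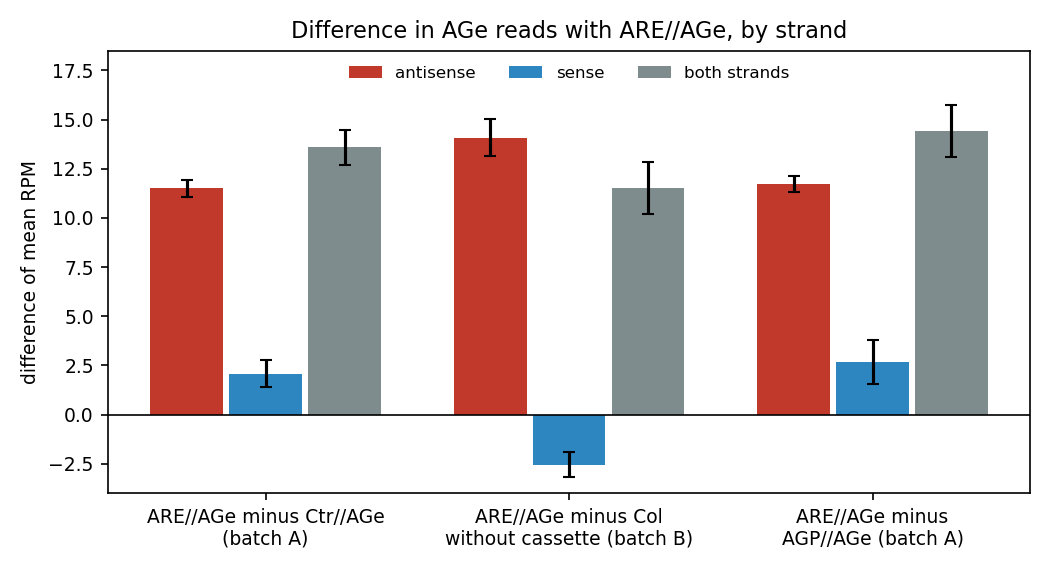
Difference of mean RPM over AGe (ARE//AGe minus the comparison group) for antisense reads, sense reads and both strands together. Bars are differences of means of 3 and 3 samples, and error bars are the SE of the difference. The antisense difference is 11.5, 14.1 and 11.7 RPM from left to right, while the sense difference is 2.08, -2.56 and 2.68 RPM.

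The antisense share, the percent of AGe reads of both strands that were antisense, needs no library size. In batch A it was 45.9%, 47.4% and 47.1% in ARE//AGe replicates 1, 2 and 3. Each rests on 1073, 1007 or 871 AGe reads, and the exact binomial (Clopper-Pearson) 95% intervals together span 42.9% to 50.5%. With Ctr//AGe it was 12.2%, 7.52% and 8.02%, with intervals between 5.27% and 15.6%. The share was thus 37.6 ± 1.54 percentage points higher with ARE//AGe (SE, n = 3 and 3).

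In batch B the share was 72.8%, 73.6% and 72.4% in ARE//AGe replicates 1, 2 and 3, from 287, 753 and 515 AGe reads, with intervals between 67.3% and 77.9%. In Col without a cassette it was 3.55%, 3.90% and 2.11%, with intervals between 0.776% and 7.57%. The difference was 69.8 ± 0.644 percentage points (SE, n = 3 and 3). In each batch the lowest ARE//AGe share was above the highest share of its comparison group, by 33.8 percentage points in A and 68.5 in B. Expressed as antisense reads per sense read, ARE//AGe gave 0.850, 0.900 and 0.889 in batch A and 2.68, 2.78 and 2.63 in batch B.

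**Figure D3:**
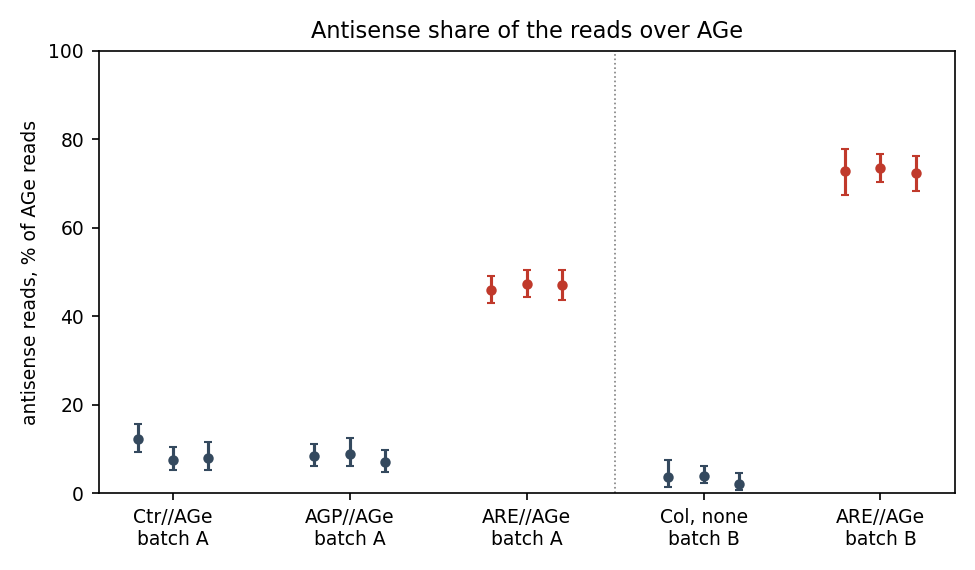
Antisense reads as a percent of AGe reads of both strands. Points are samples in the order of replicates 1 to 3, error bars are exact binomial 95% intervals (counting error only), and the dotted line separates the batches. In batch A the ARE//AGe samples (red) sit near 46.8% and the others shown at or below 12.2%. In batch B the ARE//AGe samples sit near 72.9% and Col at or below 3.90%.

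The share, the rise on each strand and the sum of both strands were each tested in the 3 comparisons. All 12 two-sided exact permutation tests over samples gave p = 0.1, the smallest value that 3 samples against 3 allow, so they could make no call. The SD of the antisense level was 5.63% of its mean in batch A and 11.4% in batch B, where counting alone would give 4.67% and 5.39%. For the sense level it was 4.41% and 9.28%, where counting alone would give 4.38% and 8.86%. The intervals and these counting values treat reads as independent molecules, and cover counting error only.

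The group means behind these differences were, for ARE//AGe, 12.8 ± 0.719 RPM of antisense and 14.5 ± 0.640 RPM of sense reads in batch A (SD, n = 3). In batch B they were 14.3 ± 1.64 and 5.31 ± 0.493 RPM (SD, n = 3). The sense level of the controls was 12.4 ± 1.011 RPM for Ctr//AGe in A and 7.87 ± 0.980 RPM for Col in B (SD, n = 3 each). The batches differ in index primers and in their control group, which cannot be told apart, so no comparison was made between them.

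AGP//AGe is the other cassette with AGe in batch A that has a group with Wt flowers, and against it the antisense difference with ARE//AGe was of like size. AGP//AGe replicates 1, 2 and 3 had 1.04, 0.994 and 1.05 RPM of antisense reads, below all ARE//AGe samples by 11.2 RPM or more. ARE//AGe was higher by 11.7 ± 0.415 RPM (SE, n = 3 and 3) and by 3.63 ± 0.31 (SE) on the log2 scale (edgeR adjusted p = 1.36e-14). The antisense share with AGP//AGe was 8.33%, 8.88% and 7.06%, or 38.7 ± 0.691 percentage points lower. Sense reads were 11.5, 10.2 and 13.8 RPM with AGP//AGe, and the difference of 0.30 on the log2 scale was not called (95% interval -0.08 to 0.68, edgeR adjusted p = 0.124).

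Reads in the promoter or M2 column differed between these cassettes in the other direction, mainly through AGP//AGe replicates 1 and 3. ARE//AGe in batch A had a count of 0 on both strands in all 3 samples, a limit of 0.0277 RPM at the depth of the 3 together (3 counts). AGP//AGe replicates 1, 2 and 3 had 9, 1 and 14 sense reads and 10, 1 and 4 antisense reads. The ARE//AGe level was at least 8.59-fold below the AGP//AGe mean for sense and at least 4.95-fold below it for antisense. These bounds set ARE//AGe at 3 counts over its group and take the AGP//AGe mean without its own error. The edgeR test, which is of any difference and not of these bounds, gave adjusted p = 0.00146 for sense and 0.000471 for antisense. Sample by sample these bounds moved: without AGP//AGe replicate 3 the sense bound was 4.61-fold, without AGP//AGe replicate 1 the antisense bound was 2.94-fold, and without any 1 ARE//AGe sample they were 5.43-fold to 5.94-fold and 3.13-fold to 3.42-fold. With the promoter features, 3 of 4 were called (75%), and with only these 2 groups in the fit only AGe antisense was (promoter adjusted p = 0.0586 on both strands). Whether the column stands for the promoter or for M2 in each group is not stated, and the bounds hold only if it is the same. Nor do the labels say whether the AGP//AGe cassette holds a copy of the counted region. Reads of such a copy would be counted in this column, and this was not tested.

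Against its own controls ARE//AGe showed almost no reads in that column. Ctr//AGe had 1 antisense read among 3 samples and no sense read. In batch B, ARE//AGe had 1 sense and 3 antisense reads, the latter 1 in each sample, and Col had none, which allows up to 0.0272 RPM. Counts this low give no fold, and no promoter feature was called in either comparison (edgeR adjusted p of 0.344 for antisense and 1 for sense in A, and 0.0586 and 0.399 in B). The 3 antisense reads against 0 in batch B were called when only batch B or only the compared groups were fitted (adjusted p = 0.0451 and 0.0310).

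**Figure D4:**
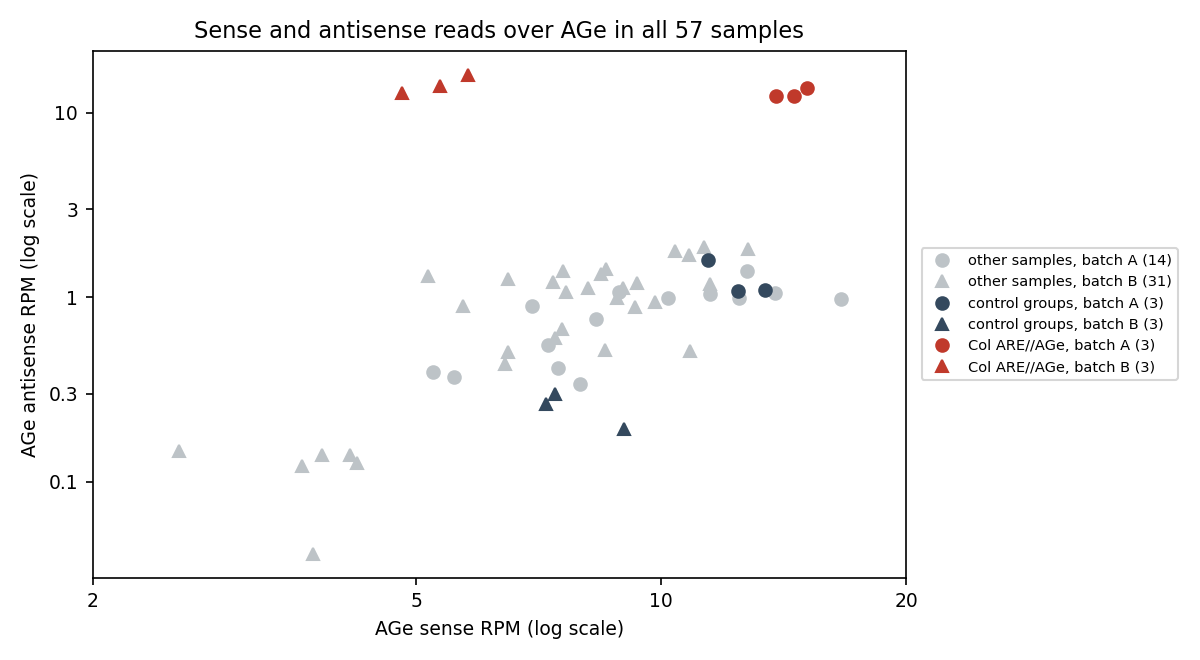
AGe antisense against AGe sense levels in RPM, both on log scales, for all 57 samples. Circles are batch A and triangles batch B, with Col ARE//AGe in red, the Ctr//AGe and Col control samples in dark blue and all others in grey. In batch A the 3 Col ARE//AGe samples lie at 12.3 RPM of antisense reads or more and the 17 others at 1.58 RPM or less. In batch B the 3 Col ARE//AGe samples lie at 12.9 RPM or more and the 34 others at 1.86 RPM or less.

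Within each batch, the ARE//AGe samples in Col had the highest antisense levels and shares. In batch A they ran from 12.3 to 13.6 RPM and the 17 other samples from 0.338 to 1.58 RPM. In batch B they ran from 12.9 to 16.1 RPM and the 34 others from 0.0406 to 1.86 RPM, the highest being an hdp2-1 ARE//AGe sample with rMf flowers. The lowest of the 3 was 6.90 times that sample. The share among the others of batch B reached 20.1%, in suvh1-2 replicate 2 without a cassette, against 72.4% in the lowest ARE//AGe sample in Col. The 22 batch B samples that carry ARE//AGe in the mutants suvh1-2, hdp1-1 or hdp2-1, with flowers scored Wt, sMf or, in the hdp mutants, rMf, had antisense shares of 4.50% to 16.2%. Sense levels of the Col ARE//AGe samples lay inside the range of the others, near the top in batch A and toward the bottom in batch B. In batch A 1 of the 17 others, an AGP//AGe sample with sMf flowers at 16.7 RPM, exceeded the lowest of them. In batch B 28 of the 34 others did. The 22 mutant samples with ARE//AGe had 6.48 to 12.8 RPM of sense reads, above the 4.80 to 5.78 RPM in Col. This ordering is a description, and of the other groups only AGP//AGe with Wt flowers was tested.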

How the data were processed

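Strand-specific total RNA libraries, depleted of ribosomal RNA, were made from pooled young flowers, per the labels' protocols. The authors deposited raw read counts per strand over 2 regions, library totals as counts, the percent of reads mapped, and RPM values. Per the submitters' processing notes the tools included HISAT2 and HTSeq 0.13.5 and the build was TAIR10. No source used here gives their settings or the handling of multiply mapped reads. The deposited RPM equal count / uniquely mapped reads × 1000000 (largest gap 0), although the header speaks of mapped reads. Per the file headers all libraries are strand-specific, and the deposited percent of reads mapped was not used in any test.

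Counts were tested with edgeR 4.0.16 (R 4.3.3) by its quasi-likelihood test. Library size was the uniquely mapped reads, all 57 samples entered as 20 group means, and there was 1 common dispersion (0.0364, 37 residual degrees of freedom, prior count 0.125). Adjusted p-values are Benjamini-Hochberg values within a comparison (4 features). The fitting code was first run on simulated counts with known differences, as a check of the code and not of the single dispersion. Shares and absolute differences used exact permutation tests (scipy 1.17.1). All 4 features are named. Alternatives included DESeq2 1.42.0. Sequences and annotation are from RefSeq TAIR10.1, in which the deposited AGe coordinates meet the intron boundaries of AG exactly. The members, comparisons and alternatives were chosen with earlier results of these data known.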

Additional observations from a re-analysis of the deposited data

How the results depend on the processing

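Both antisense calls over AGe against the controls, and the one against AGP//AGe, were kept under every alternative run, with log2 differences of 3.24 to 3.55 against Ctr//AGe, 5.48 to 5.97 against Col and 3.55 to 3.65 against AGP//AGe. Of the shares and absolute differences none changed sign. When the fit held no samples beyond those compared, the batch A sense difference was called (log2 0.23), which makes 2 features called, and 1 feature was called against AGP//AGe, since both promoter features missed the threshold (log2 -6.07 sense and -5.40 antisense, against samples at 0 and so no measure of size). The batch B promoter antisense feature, on 3 reads against 0, was called with only batch B (fitted log2 3.39) or only the compared groups (fitted log2 3.42) in the fit. Leaving out 1 replicate at a time moved the batch B sense difference between log2 -0.63 and -0.46 and its count of called features between 1 and 2. A minimum mean of 10 reads per sample left only the 2 AGe features to test, so 1 feature was called against AGP//AGe. With the replicate block the antisense differences were log2 3.35 in A and 5.78 in B, and no call in the 3 comparisons changed. The numbers pair samples in name only, and 2 well-counted features cannot show whether same-numbered samples deviate together. Leaving out a sample of a group of 3 leaves 2, and the fit then assumes that they vary like the other groups. Depth limits the promoter column, where a group total of 3 reads is 0.0272 to 0.0388 RPM, and the fold over Col, which rests on 29 antisense reads.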
